A study of Mus musculus with 4 samples.

Results

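The 10 genes described here belong to the early programme of invariant natural killer T (iNKT) cells in the thymus: Lef1, Tcf7, Sox4, Myb, Tox, Hivep3, Itm2a, Cd24a, Themis and Ezh2. They were taken by gene symbol, each matched 1 row, and together they are 10 of the 32285 genes in the deposited tables. Single-cell RNA-seq libraries of thymic iNKT cells were made with the 10x Genomics 3′ chemistry, v3.1, 2 of them labelled ACC1 KO and 2 WT (wild type), and both genotypes carry the numbers 1 and 2. Thymocytes of young adult mice, 6 to 8 weeks of age in both genotypes, were enriched on magnetic beads for CD1d tetramer binding and then sorted as CD3+ and CD1d tetramer+ cells. ACC1, the acetyl-CoA carboxylase encoded by Acaca, makes the malonyl-CoA used for fatty acid synthesis. The sources used here do not state the Cre driver, the deleted part of Acaca, the strain or whether each library came from its own animal, so p-values measure only the spread between these libraries. In the sentences on values, the 2 libraries of a genotype are given in the order 1 and 2.

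iNKT cells arise from CD4+ CD8+ double-positive (DP) thymocytes whose invariant T cell receptor binds lipids on CD1d shown by other DP thymocytes. The earliest CD24-positive precursor, often called iNKT0, loses CD24 and then branches into interleukin-4-making iNKT2, interleukin-17-making iNKT17 and interferon-gamma-making iNKT1 cells. Lef1, Tcf7, Sox4 and Tox encode HMG box DNA-binding proteins, Myb and Hivep3 encode transcription factors, Itm2a and Cd24a encode membrane proteins, Themis encodes a T cell receptor signalling protein of the thymus and Ezh2 encodes the histone H3 lysine 27 methyltransferase of Polycomb repressive complex 2.

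Positions are on the mouse build GRCm38 with the GENCODE M21 annotation. Lef1 (chr3:131110471-131224356, plus strand), Tox (chr4:6686353-6991557, minus strand), Hivep3 (chr4:119733784-120138045, plus strand) and Themis (chr10:28668360-28883818, plus strand) span 114, 305, 404 and 215 kb. Tcf7 (chr11:52252371-52283014, minus strand), Myb (chr10:21124935-21160984, minus strand) and Ezh2 (chr6:47530139-47595341, minus strand) span 30.6, 36 and 65.2 kb. Sox4 (chr13:28948919-28953713, minus strand), Itm2a (chrX:107397099-107403376, minus strand) and Cd24a (chr10:43578284-43584265, plus strand) span 4.79, 6.28 and 5.98 kb. An annotated transcript overlaps Lef1, Tcf7, Myb and Tox on the opposite strand, and another gene overlaps Hivep3 on the same strand. The sources used here do not state whether the counting used strand and intronic reads, so reads of these neighbours cannot be told apart from those of the 5 genes.

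Sequences upstream of 5 genes are shown as examples, picked with their levels across classes known. Lef1 and Itm2a were highest in iNKT0-like cells, Themis and Sox4 in DP thymocyte-like cells, and Myb was close in both. Promoter sequences came from RefSeq (build GRCm38.p6), in which 8 of the 10 genes were matched. Each run below is the 250 bases 5′ of the RefSeq transcription start, read on the strand of the gene, and capitals mark a match to the E-box, the motif of the E proteins.
Lef1, chr3:131110073-131110322, plus strand: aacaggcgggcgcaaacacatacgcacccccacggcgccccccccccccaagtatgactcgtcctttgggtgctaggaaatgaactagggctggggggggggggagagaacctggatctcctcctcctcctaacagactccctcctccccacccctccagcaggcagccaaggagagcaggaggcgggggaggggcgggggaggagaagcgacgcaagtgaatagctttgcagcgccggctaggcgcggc
Itm2a, chrX:107403361-107403610, minus strand: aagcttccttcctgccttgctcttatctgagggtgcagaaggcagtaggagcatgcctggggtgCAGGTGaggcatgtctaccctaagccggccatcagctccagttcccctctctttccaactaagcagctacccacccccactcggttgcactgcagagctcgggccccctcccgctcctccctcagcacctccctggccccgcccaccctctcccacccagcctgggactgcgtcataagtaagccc
Themis, chr10:28668110-28668359, plus strand: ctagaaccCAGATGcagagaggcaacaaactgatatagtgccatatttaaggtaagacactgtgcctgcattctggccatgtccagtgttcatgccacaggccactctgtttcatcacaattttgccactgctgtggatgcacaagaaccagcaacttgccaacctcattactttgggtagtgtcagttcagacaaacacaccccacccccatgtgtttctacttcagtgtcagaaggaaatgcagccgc
Sox4, chr13:28953700-28953949, minus strand: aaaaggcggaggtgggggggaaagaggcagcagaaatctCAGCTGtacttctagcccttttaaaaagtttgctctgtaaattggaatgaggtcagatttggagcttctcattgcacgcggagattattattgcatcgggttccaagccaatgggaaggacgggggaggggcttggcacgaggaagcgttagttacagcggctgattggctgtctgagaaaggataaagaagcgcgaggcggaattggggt
Myb, chr10:21160985-21161234, minus strand: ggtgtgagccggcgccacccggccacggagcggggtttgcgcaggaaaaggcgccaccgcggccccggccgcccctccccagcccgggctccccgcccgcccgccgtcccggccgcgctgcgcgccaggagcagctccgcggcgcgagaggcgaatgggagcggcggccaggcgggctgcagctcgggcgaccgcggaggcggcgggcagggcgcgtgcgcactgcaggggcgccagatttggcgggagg
These windows differ widely in composition, with 81.2% G and C upstream of Myb, 66.4% upstream of Lef1 and 48.0% upstream of Themis, beside a median of 52.0% over all promoters. The letters of 4 motifs were searched on both strands, and no matches overlapped in these 5 windows: CTTTGA for TCF and LEF proteins, CAGNTG for E proteins, TGTGGT for RUNX proteins and GCGNGGGCG for EGR proteins. An E-box stood 186 bases before the start of Itm2a, 242 before that of Themis and 211 before that of Sox4. The Tcf7 window also held 1, 159 bases before the start used, which is 1 of 2 listed for Tcf7. Whether that match lies within a transcript from the other start was not checked. Across the 27018 promoters of the table, 44.5% held an E-box, 14.0% the TCF and LEF motif, 14.2% the RUNX motif and 4.65% the EGR motif. No TCF and LEF match was found in the windows of the 8 matched genes, a statement about these letters in these windows alone.

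The deposited tables held 6416 and 8613 barcodes for the ACC1 KO libraries and 5499 and 9927 for the WT libraries, with 33.2 and 74.2 M unique molecular identifiers (UMIs) in ACC1 KO and 29.1 and 72.8 M in WT. After filters 28247 cells remained and fell into 22 clusters, which were named from marker lists that held none of the 10 genes. The 10 genes were also left out of the genes used to cluster, so their levels played no part in placing cells. The libraries numbered 1 carried the Y-linked Ddx3y and those numbered 2 carried Xist, in both genotypes. Acaca itself stood at 47.3 and 60.5 CPM (UMIs of a gene per M UMIs) in ACC1 KO iNKT cells and at 34.4 and 31.8 CPM in WT, and since the deleted part is not given, these 3′ counts do not check the labels. Libraries shared 10 to 27 barcodes per pair.

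The DP thymocyte-like class held 113 and 71 cells in ACC1 KO and 161 and 60 in WT, and the iNKT0-like class held 120 and 106 in ACC1 KO and 70 and 47 in WT. DP thymocyte-like cells were shallow, with medians of 1539 to 2666 UMIs a cell beside library medians of 4448 to 7306. All 10 DP markers were detected in them in every library, at a sum of 9444 to 11499 CPM, against 281 to 948 CPM in iNKT0-like cells and 22.7 to 52.7 CPM in iNKT1-like cells. The iNKT0-like cluster was named from a mean log2 marker score 3.29 above the median of the clusters, where the limit was 2.5. The DP thymocyte-like cluster also passed that limit, at 2.85, and got its name from the DP rule, which was applied first. Of the 11 markers on the iNKT0 list, 10 stood above 5 CPM in iNKT0-like cells. That list shares Rag1, Dntt and Ccr9 with the DP list, and its sum was lower in iNKT0-like cells, at 6195 to 6790 CPM, than in DP thymocyte-like cells, at 8743 to 10075 CPM, so that the sum does not single out the class. It was 1010 to 1297 CPM in iNKT1-like cells. Of the genes that led the cluster, Nrgn was 1 of the 11 markers, and 5 others (Lef1, Tox, Itm2a, Myb and Hivep3) were among the 10 described here. The 10 were chosen with earlier results of these data known, so their lead is no support for the name. Zbtb16, the iNKT lineage factor PLZF, stood at 223 to 797 CPM in iNKT0-like cells and at 0 to 21.0 CPM in DP thymocyte-like cells. A UMI of Trav11, the variable segment of the invariant receptor, was found in 0 of 343 iNKT0-like cells and in 0 of 405 DP thymocyte-like cells. It was found in 509 of 18140 iNKT1-like cells (2.81%), in 26 of 1037 iNKT2-like cells (2.51%) and in 0 of 558 B cell-like cells. Pooled over libraries, the 0 of 343 allows up to 0.875% of iNKT0-like cells with a UMI, a limit that covers counting error only. The iNKT1-like shares ran from 1.42 to 3.41% by library. The 0 of 343 sets no limit on the share of cells that express the segment. iNKT0-like cells also had fewer median UMIs than iNKT1-like cells in every library. The label iNKT0-like rests on the marker rule, beside the low DP marker sum and the Zbtb16 level, and the receptor segment did not back it.

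The 10 genes did not share a single course from DP thymocyte-like cells to mature classes. By their mean over libraries, among DP thymocyte-like and iNKT classes, 4 were highest in DP thymocyte-like cells (Tcf7, Sox4, Cd24a and Themis), 5 in iNKT0-like cells (Lef1, Myb, Tox, Hivep3 and Itm2a) and Ezh2 in cycling DP thymocyte-like cells. That class was the highest in all 4 libraries for 8 of the 10, in 3 libraries for Sox4 and in 2 for Cd24a. All 10 were lower in iNKT1-like cells than in iNKT0-like cells in each of the 4 libraries, by a mean of 2.48 (Tcf7) to 6.67 (Myb) on the log2 scale with 5 CPM added. Against DP thymocyte-like cells, 8 of the 10 were lower in iNKT1-like cells, whereas Itm2a and Hivep3 were at or above their DP level in iNKT1-like cells in every library. Since classes were found from the same cells, differences between classes are descriptions without a test.

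**Figure D1:**
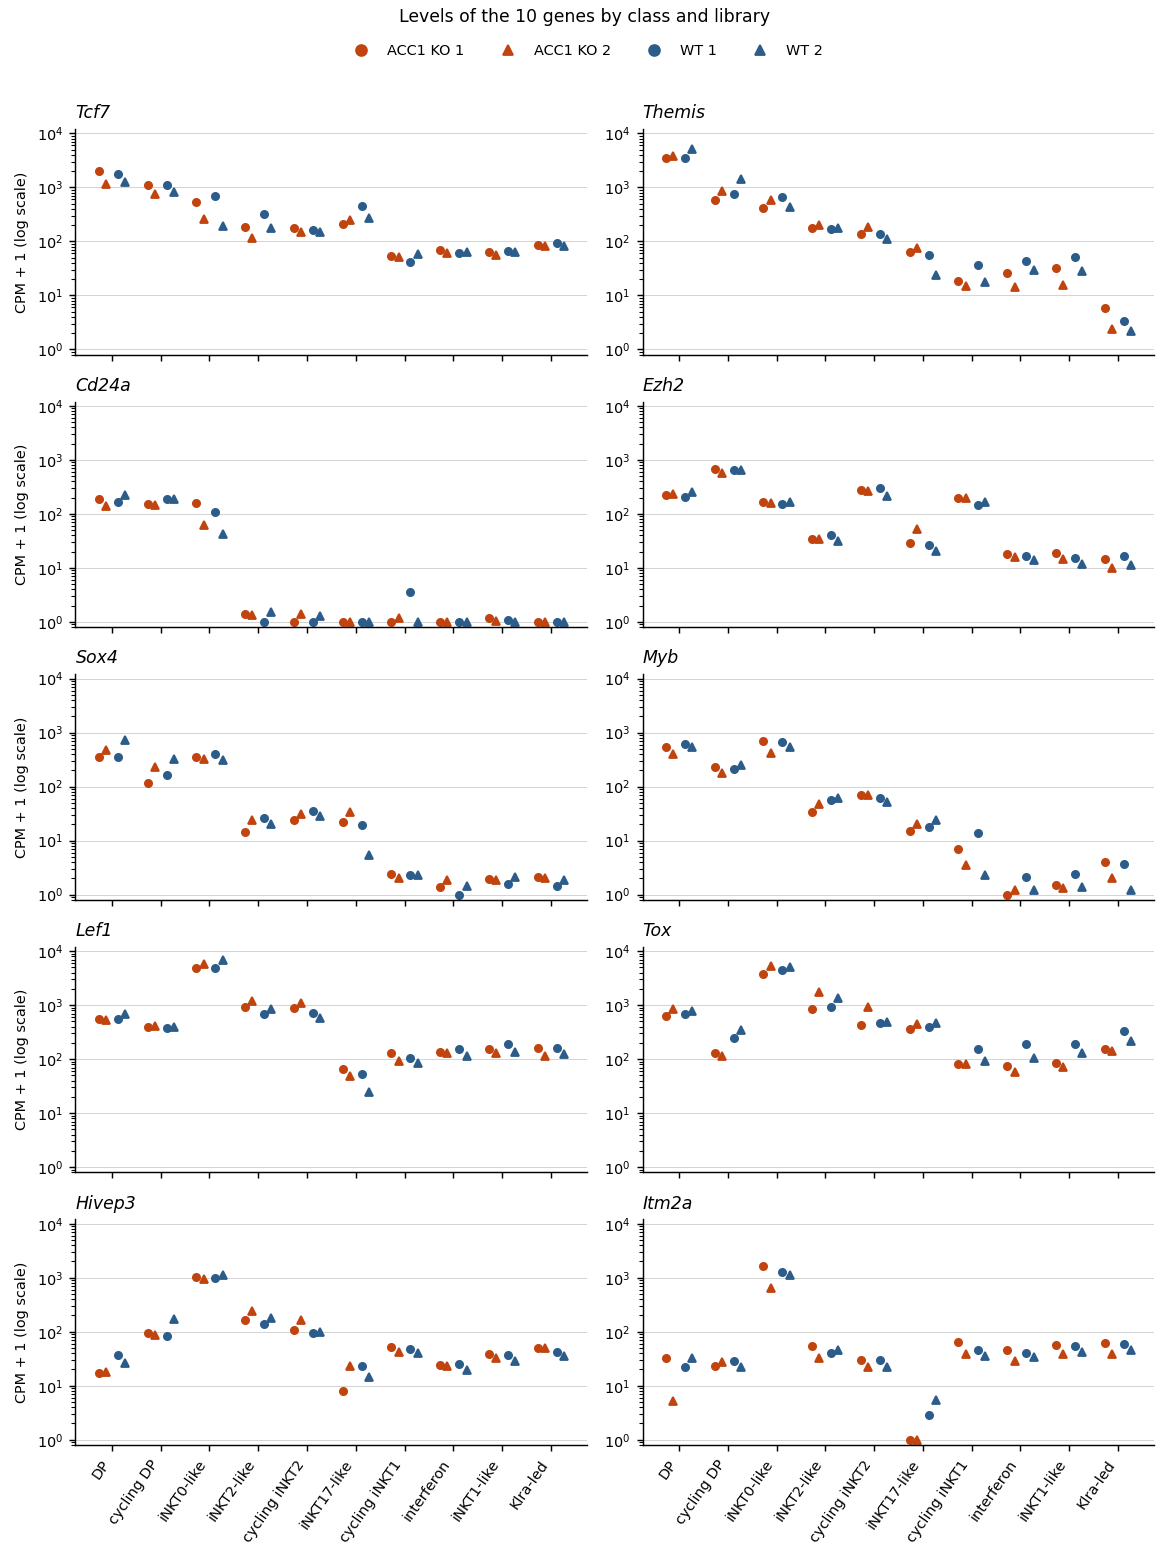
Level of each of the 10 genes in CPM (1 added, log axis) in every class, running from DP thymocyte-like to mature classes, with 1 point per library, ACC1 KO left of WT. Lef1, Tox, Hivep3 and Itm2a peak in iNKT0-like cells, where Lef1 stood at 4835 to 6814 CPM, while Themis peaks in DP thymocyte-like cells at 3558 to 5199 CPM.

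Lef1, an HMG box factor that binds TCF and LEF sites and partners beta-catenin, was, of the HMG box genes, the furthest above its DP thymocyte-like level in iNKT0-like cells. In DP thymocyte-like cells it stood at 542 and 533 CPM in ACC1 KO and at 545 and 670 CPM in WT. In iNKT0-like cells it reached 4835 and 5784 CPM in ACC1 KO and 4946 and 6814 CPM in WT, which is 3.27 ± 0.14 above DP thymocyte-like cells on the log2 scale (SD, n = 4 libraries). In iNKT2-like cells it stood at 918 and 1205 CPM in ACC1 KO and at 684 and 848 CPM in WT, and in iNKT1-like cells at 156 and 127 CPM in ACC1 KO and at 192 and 134 CPM in WT. No library of 1 of these 4 classes overlapped another class, and the iNKT0-like to iNKT1-like difference was 5.16 ± 0.45 (log2, SD, n = 4). iNKT17-like cells had the lowest level of the iNKT classes, 63.6 and 48.2 CPM in ACC1 KO and 52.2 and 24.1 CPM in WT. The antisense transcript Lef1os1, which overlaps Lef1 over 1620 bases, was likewise highest in iNKT0-like cells, with 610 and 462 CPM in ACC1 KO and 601 and 431 CPM in WT, although among the libraries it was lower in those numbered 2, in which Lef1 was higher.

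Tcf7, which encodes the paralogous factor TCF1 of early T cell development, ran the other way over the same interval. In DP thymocyte-like cells it stood at 2055 and 1153 CPM in ACC1 KO and at 1785 and 1240 CPM in WT, and in iNKT0-like cells at 528 and 256 CPM in ACC1 KO and at 679 and 195 CPM in WT. It was thus 2.03 ± 0.52 lower in iNKT0-like than in DP thymocyte-like cells, where Lef1 was 3.27 ± 0.14 higher (log2, SD, n = 4). Among mature cells the highest level was in iNKT17-like cells, with 205 and 247 CPM in ACC1 KO and 445 and 269 CPM in WT, whose ranges overlap those of iNKT2-like cells at 186 and 116 CPM in ACC1 KO and 317 and 176 CPM in WT. iNKT1-like cells held 62.0 and 55.8 CPM in ACC1 KO and 66.0 and 62.7 CPM in WT. Its 4 iNKT1-like sums lay within 55.8 to 66.0 CPM, while its iNKT0-like level was higher in library 1 than in library 2 of each genotype.

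Sox4, an HMG box factor of immature lymphocytes, overlapped between DP thymocyte-like and precursor cells and was near 0 in iNKT1-like cells. It stood at 359 and 465 CPM in ACC1 KO and at 355 and 727 CPM in WT DP thymocyte-like cells, and at 352 and 328 CPM in ACC1 KO and 396 and 314 CPM in WT iNKT0-like cells. iNKT2-like cells held 13.2 and 23.5 CPM in ACC1 KO and 25.5 and 19.6 CPM in WT. iNKT17-like cells held 4.51 to 32.1 CPM over the libraries. The iNKT1-like level was 0.937 and 0.856 CPM in ACC1 KO and 0.592 and 1.08 CPM in WT, from 99 UMIs among 18140 cells.

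Tox, an HMG box factor needed for the CD4 lineage and for iNKT cells, was likewise highest in iNKT0-like cells, with iNKT2-like cells next. DP thymocyte-like cells held 638 and 839 CPM in ACC1 KO and 692 and 777 CPM in WT, and iNKT0-like cells held 3852 and 5295 CPM in ACC1 KO and 4498 and 5084 CPM in WT. The difference between these 2 classes, 2.66 ± 0.05 (log2, SD, n = 4), was the most even over libraries of any of the 10 genes. iNKT2-like cells kept 845 and 1729 CPM in ACC1 KO and 912 and 1378 CPM in WT, and iNKT17-like cells 367 and 443 CPM in ACC1 KO and 393 and 472 CPM in WT. In iNKT1-like cells the genotypes did not overlap, with 84.4 and 71.7 CPM in ACC1 KO and 186 and 127 CPM in WT.

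Myb, the factor c-Myb that sustains DP thymocytes, was the gene with the largest difference between iNKT0-like and iNKT1-like cells on the log2 scale with 5 CPM added. Without that addition the ratio of mean levels was larger for Cd24a, and both genes were near 0 in iNKT1-like cells. It stood at 542 and 394 CPM in ACC1 KO and at 606 and 532 CPM in WT DP thymocyte-like cells, and at 684 and 426 CPM in ACC1 KO and 661 and 542 CPM in WT iNKT0-like cells. The iNKT0-like level was the higher in every library, by 0.15 ± 0.13 (log2, SD, n = 4), a difference close to its own spread. iNKT2-like cells held 32.7 and 45.9 CPM in ACC1 KO and 55.4 and 59.2 CPM in WT, and iNKT1-like cells 0.527 and 0.337 CPM in ACC1 KO and 1.41 and 0.384 CPM in WT, from 56 UMIs in all.

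Hivep3, a zinc finger factor of the Schnurri family, was highest in iNKT0-like cells and lower in the other DP thymocyte-like and iNKT classes. Cycling DP thymocyte-like cells held 81.1 to 169 CPM over the libraries. DP thymocyte-like cells held 16.1 and 16.8 CPM in ACC1 KO and 36.7 and 25.1 CPM in WT, against 1036 and 933 CPM in ACC1 KO and 1008 and 1137 CPM in WT iNKT0-like cells. These levels are 5.23 ± 0.44 apart (log2, SD, n = 4). iNKT2-like cells stood between, at 163 and 246 CPM in ACC1 KO and 139 and 180 CPM in WT, and iNKT1-like cells held 37.7 and 31.4 CPM in ACC1 KO and 36.8 and 27.9 CPM in WT. The DP thymocyte-like and iNKT1-like ranges overlap.

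Of the membrane proteins, Itm2a, an integral membrane protein switched on at thymic selection, was likewise highest in iNKT0-like cells. It was low in DP thymocyte-like cells, with 32.2 and 4.19 CPM in ACC1 KO and 21.4 and 31.3 CPM in WT, where the lowest value rests on 1 UMI (exact 95% Poisson interval 0.106 to 23.4 CPM). iNKT0-like cells held 1649 and 647 CPM in ACC1 KO and 1262 and 1134 CPM in WT. In iNKT1-like cells it stood at 55.6 and 37.3 CPM in ACC1 KO and 53.6 and 41.9 CPM in WT, a range that overlaps that of iNKT2-like cells. In iNKT17-like cells no UMI was seen in either ACC1 KO library, which allows up to 21.2 and 9.64 CPM (3 UMIs per library), and 1.86 and 4.51 CPM were seen in WT.

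Cd24a, the surface protein whose loss marks the end of the iNKT0 stage, stood at 188 and 138 CPM in ACC1 KO and at 168 and 219 CPM in WT DP thymocyte-like cells. iNKT0-like cells held 158 and 61.3 CPM in ACC1 KO and 108 and 41.9 CPM in WT, a range that overlaps that of DP thymocyte-like cells and in which library 2 was below library 1 in both genotypes. From iNKT2-like cells onward it was almost gone, with 0.425 and 0.364 CPM in ACC1 KO and 0 and 0.515 CPM in WT iNKT2-like cells and 5 UMIs in all 18140 iNKT1-like cells. B cell-like cells of the same libraries, which are known to carry CD24, held 244 and 168 CPM in ACC1 KO and 239 and 71.8 CPM in WT. Intronless copies of Cd24a exist in the mouse genome, so its counts may be split.

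Themis, which tunes T cell receptor signals in DP thymocytes, had the largest difference between DP thymocyte-like and iNKT1-like cells on the log2 scale with 5 CPM added, 6.88 ± 0.70 (SD, n = 4). Without that addition the ratio of mean levels was larger for Sox4, Myb and Cd24a, which were near 0 in iNKT1-like cells. DP thymocyte-like cells held 3573 and 3741 CPM in ACC1 KO and 3558 and 5199 CPM in WT, and cycling DP thymocyte-like cells 576 and 859 CPM in ACC1 KO and 763 and 1423 CPM in WT. In iNKT0-like cells Themis stood at 420 and 586 CPM in ACC1 KO and at 653 and 431 CPM in WT, 2.94 ± 0.50 below DP thymocyte-like cells (log2, SD, n = 4). It was thus already lower at the stage at which Lef1, Tox, Hivep3 and Itm2a were highest. iNKT2-like cells held 177 and 203 CPM in ACC1 KO and 169 and 176 CPM in WT, and iNKT1-like cells 31.6 and 14.7 CPM in ACC1 KO and 49.9 and 27.8 CPM in WT. The lowest level was in a cluster led by Klra genes, which code for Ly49 receptors, and left unnamed by the marker rule, with 4.96 and 1.38 CPM in ACC1 KO and 2.41 and 1.20 CPM in WT.

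Ezh2, the methyltransferase, was highest in cycling classes at each stage. Cycling DP thymocyte-like cells held 690 and 581 CPM in ACC1 KO and 652 and 655 CPM in WT, against 225 and 235 CPM in ACC1 KO and 205 and 251 CPM in WT for DP thymocyte-like cells outside the cycle. iNKT0-like cells held 167 and 161 CPM in ACC1 KO and 153 and 168 CPM in WT, all 4 below the DP thymocyte-like level. Cycling iNKT2-type cells held 280 and 269 CPM in ACC1 KO and 306 and 218 CPM in WT, and cycling iNKT1-type cells 196 and 200 CPM in ACC1 KO and 146 and 167 CPM in WT. In iNKT1-like cells outside the cycle the level was 18.2 and 13.8 CPM in ACC1 KO and 14.2 and 10.9 CPM in WT.

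The share of cells with at least 1 UMI was compared with every cell thinned to 2000 UMIs. Lef1 was detected in 97.4 and 98.0% of ACC1 KO and 96.7 and 97.8% of WT iNKT0-like cells (exact 95% binomial intervals from 88.5 to 99.9% over the libraries, covering counting error only), and in 24.4 and 19.8% of ACC1 KO and 28.3 and 21.0% of WT iNKT1-like cells. Themis was detected in 94.7 and 98.2% of ACC1 KO and 93.8 and 95.7% of WT DP thymocyte-like cells. Itm2a was detected in 78.2 and 64.0% of ACC1 KO and 66.7 and 67.4% of WT iNKT0-like cells, against at most 4.69% of DP thymocyte-like cells in any library. Unthinned, B cell-like cells had median depths of 3138 to 7991 UMIs and iNKT1-like cells of 4264 to 6958, and in droplet data free RNA gives UMIs in both. Sox4 and Myb were found in at most 0.314% of iNKT1-like cells and up to 1.34% of B cell-like cells, and Cd24a in at most 0.035% of iNKT1-like cells. Hivep3 was found in 4.57 to 6.86% of iNKT1-like cells and 4.72 to 7.14% of B cell-like cells. B cell-like cells may express such genes themselves, and a B cell-like cluster held Hivep3 at 72.4 CPM and Ezh2 at 238 CPM. A share like theirs thus does not tell free RNA from expression. By mean level Hivep3 stood at 33.4 CPM in iNKT1-like, 21.9 CPM in interferon-responding and 16.4 CPM in iNKT17-like cells. Lef1, Tcf7, Itm2a, Tox and Themis in iNKT1-like cells stood above the B cell-like share in every library, where the smallest B cell-like group was 15 cells. Ezh2, at 1.95 to 3.35% of iNKT1-like cells and 0 to 13.4% of B cell-like cells, did not.

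Counted per cell, more of the 10 genes were detected in iNKT0-like than in DP thymocyte-like cells. The 10 were chosen with earlier results of these data known, and 5 of them were among the genes that led the iNKT0-like cluster. This order is thus a description of the chosen genes and no finding about the stage. Of the 10, a mean of 5.73 and 5.64 in ACC1 KO and 5.97 and 5.72 in WT was detected in an iNKT0-like cell thinned to 2000 UMIs. The mean was 4.79 and 4.53 in ACC1 KO and 4.91 and 5.02 in WT DP thymocyte-like cells, 2.40 and 2.49 in ACC1 KO and 2.44 and 2.30 in WT iNKT2-like cells, and 0.733 and 0.589 in ACC1 KO and 0.919 and 0.682 in WT iNKT1-like cells. No library of 1 class overlapped another among these 4 classes. A UMI of 5 or more of the 10 genes was found in 84.6 and 79.0% of ACC1 KO and 85.0 and 87.0% of WT iNKT0-like cells, against 1 of 3675 and 0 of 5262 ACC1 KO and 1 of 2870 and 1 of 6219 WT iNKT1-like cells. Too shallow for thinning were 94 and 16 DP thymocyte-like cells in ACC1 KO and 97 and 13 in WT, and 42 and 6 iNKT0-like cells in ACC1 KO and 10 and 1 in WT.

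**Figure D2:**
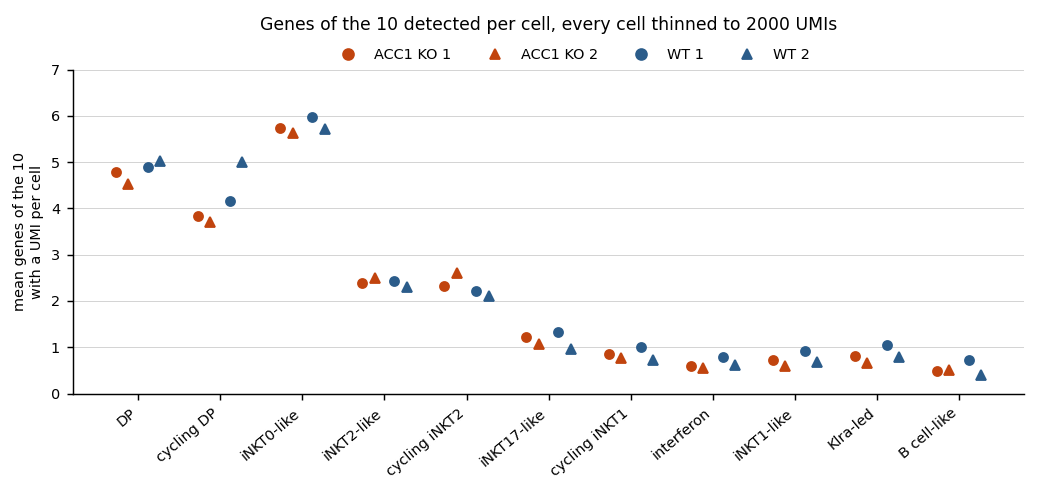
Mean number of the 10 genes with a UMI per cell, every cell thinned to 2000 UMIs, by class, 1 point per library, ACC1 KO left of WT. iNKT0-like cells carry 5.64 to 5.97 of the 10, above DP thymocyte-like cells at 4.53 to 5.02, and iNKT1-like cells carry 0.589 to 0.919. The 10 were chosen with earlier results of these data known.

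Within the 10, levels were correlated across 40 sums (10 classes of DP thymocyte-like and iNKT cells in 4 libraries, on log2 CPM with 5 added). Sox4 and Myb ran together most closely (Pearson r = 0.972), and Themis ran with Sox4 (r = 0.934) and Myb (r = 0.919). Lef1 ran with Hivep3 (r = 0.871) and Hivep3 with Itm2a (r = 0.789), while Tcf7 and Itm2a were unrelated (r = -0.045). Among 6453 genes with a mean of at least 20 CPM, the genes most like the mean of the 10 were Gsn, an actin-severing protein (r = 0.945), Gm26930 (0.942), Marcksl1, an actin-binding protein (0.937), Gm26936 (0.935), Ldhb, a lactate dehydrogenase subunit (0.933), Slamf6, a SLAM family receptor (0.93), A430106G13Rik (0.928), Cd81, a tetraspanin (0.928), Mtf2, a Polycomb-like protein (0.923), and Smarcad1, a chromatin remodeller (0.919). The sums share libraries, depths and the same few classes, so these correlations are descriptions. Over all genes, median differences between classes varied with gene span. From DP thymocyte-like to iNKT1-like cells the median was 0.62 (log2, DP over iNKT1) for the 975 genes of at least 100 kb and 0.36 for the 5481 shorter genes. In the same order the medians were 0.39 and 0.34 for iNKT0-like over iNKT1-like cells and -0.02 and 0.05 for iNKT2-like over iNKT1-like cells. They were -0.28 and -0.01 for iNKT0-like over DP thymocyte-like cells. The part of span in the values of Lef1, Tox, Hivep3 and Themis was not tested. Malat1, a nuclear RNA, stood at 32658 to 42348 CPM in DP thymocyte-like, 24515 to 30858 CPM in iNKT0-like and 13986 to 16586 CPM in iNKT1-like cells, and its part was not tested either.

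Summed over all iNKT cells, no gene of the 10 passed the adjusted threshold of 0.05 between genotypes by edgeR's quasi-likelihood test. This fit, like those of ACC1 KO against WT within classes below, left out the replicate number. By unadjusted p under 0.05, 3 of the 10 passed with edgeR (Lef1, Hivep3 and Ezh2), beside 4.96% of all genes, and 0 passed adjusted with DESeq2. Over all 14712 genes, edgeR called 0.0068% higher and 0% lower in ACC1 KO, and DESeq2 0.455% higher and 0.245% lower. The same 3 genes were the ones whose libraries did not overlap, all higher in ACC1 KO, and 11.5% of all genes were apart in that direction and 19.2% in the other. Ezh2 stood at 47.6 and 51.8 CPM in ACC1 KO and at 31.5 and 33.7 CPM in WT, a log2 fold change of 0.65 ± 0.15 (SE; unadjusted p = 0.00543, adjusted p = 0.596). Hivep3 stood at 64.0 and 70.7 CPM in ACC1 KO and at 55.5 and 43.1 CPM in WT, 0.51 ± 0.15 (SE; adjusted p = 0.851). Lef1 stood at 307 and 343 CPM in ACC1 KO and at 277 and 209 CPM in WT, 0.48 ± 0.17 (SE; adjusted p = 0.964). Within a replicate number the Ezh2 difference was 0.53 and 0.55 (log2), that of Hivep3 0.19 and 0.65 and that of Lef1 0.15 and 0.70. The difference was thus larger between the libraries numbered 2 for Hivep3 and Lef1. With the number as a block, an alternative, Lef1, Sox4, Myb, Hivep3, Cd24a and Ezh2 passed the adjusted threshold with edgeR. The labels do not say that the numbers pair the libraries, and 2 pairs are too few to settle it.

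The libraries of the genotypes were apart in the shares of several classes. iNKT2-like cells made up 5.42 and 5.41% of iNKT cells in ACC1 KO and 3.54 and 1.64% in WT, cycling iNKT1-type cells 4.39 and 5.49% in ACC1 KO and 1.99 and 3.78% in WT, and the Klra-led cluster 8.86 and 8.15% in ACC1 KO and 19.3 and 14.2% in WT. iNKT0-like cells were 2.14 and 1.36% in ACC1 KO and 1.52 and 0.521% in WT and overlapped (two-sided exact permutation test, p = 0.67, where 2 against 2 libraries cannot go below 0.33). With every library weighted to the same mix of classes, the log2 fold changes were 0.16 for Ezh2, 0.14 for Hivep3 and 0.03 for Lef1. Without cycling cells they were 0.40, 0.52 and 0.45.

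Within the early classes the levels of most of the 10 genes overlapped between genotypes. In DP thymocyte-like cells 8 of the 10 genes passed the filter on low counts, and by edgeR 0 passed the adjusted or the unadjusted threshold, as with DESeq2, where 0% of 4293 genes was called in either direction. Of the 8, Lef1 was apart, lower in ACC1 KO (-0.12 ± 0.29, log2, SE), beside 16.2% of all genes, and none was apart higher, beside 10.2%. In iNKT0-like cells, where 1 WT library held 47 cells and the limit of 50 cells was lowered to 40 after seeing the data, all 10 genes were tested and 0 passed by edgeR at either threshold or by DESeq2, where 0% of 5505 genes was called. No gene of the 10 was apart there, against 11.3% of all genes apart higher and 12.7% apart lower, and the log2 fold changes ran from -0.15 ± 0.60 (Tcf7) to 0.52 ± 0.50 (Cd24a). With standard errors of 0.28 to 0.60 these sums leave room for differences that did not pass.

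In iNKT2-like cells 9 of the 10 genes were tested, 0 passed adjusted by edgeR or DESeq2 and 1, Tcf7, had an unadjusted p under 0.05 by edgeR (2.37% of all genes did), where edgeR called 0% of 9562 genes and DESeq2 0.0418% higher in ACC1 KO. Its log2 fold change was -0.70 ± 0.31 (SE; adjusted p = 1), and -0.75 and -0.58 within the replicate numbers. Its libraries overlapped, with library 1 above library 2 in both genotypes. Lef1 (0.48 ± 0.25) and Themis (0.15 ± 0.20) were apart higher in ACC1 KO, beside 11.9% of all genes, and Myb (-0.51 ± 0.24) was apart lower, beside 14.1%. In the sum of the cycling iNKT classes 9 genes were tested and 0 passed at either edgeR threshold or by DESeq2, where edgeR called 0.0351% and DESeq2 0.0879% of all genes higher in ACC1 KO. There Lef1 (0.40 ± 0.21), Hivep3 (0.32 ± 0.19) and Ezh2 (0.15 ± 0.17) were apart higher, beside 14.2% of all genes, and none was apart lower, beside 12.1%. The log2 fold change of Ezh2, 0.65 in the whole iNKT sum, was 0.15 among cycling cells and 0.44 ± 0.19 among iNKT1-like cells.

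Among the tests of ACC1 KO against WT, the smallest unadjusted p of the 10 genes was that of Tox in iNKT1-like cells. There Tox averaged 78.1 ± 8.96 CPM in ACC1 KO and 157 ± 42.0 CPM in WT (SD, n = 2 libraries each), a log2 fold change of -0.91 ± 0.19 (SE). The difference did not pass with edgeR (unadjusted p = 0.00311, adjusted p = 0.542) and passed with DESeq2 (adjusted p = 0.0103), which called 0.127% of 13429 genes lower where edgeR called 0%. In the other direction DESeq2 called 0.447% and edgeR 0.00745% of all genes, none of the 10 among them. It was -1.10 and -0.78 within the replicate numbers. Of the 9 genes tested in this class, Tox was the 1 with an unadjusted p under 0.05, beside 3.84% of all genes, and Tox and Tcf7 (-0.04 ± 0.13) were apart lower, beside 21.9% of all genes, while 7.88% of all genes were apart higher. Themis was -0.66 ± 0.39 and overlapped. With the replicate number as a block, an alternative, Tox, Themis and Ezh2 passed with edgeR in this class.

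The make-up of the iNKT1-like class differed between libraries. A cluster led by Gm4208, Ccl5 and Klra9 held 52.3 and 36.4% of iNKT1-like cells in ACC1 KO and 25.7 and 31.9% in WT, and a cluster led by Atp8a2, Ctla2a and Cd226 held 18.6 and 11.98% in ACC1 KO and 44.0 and 22.2% in WT. The Gm4208-led cluster was the largest in both ACC1 KO libraries and in WT library 2, and the Atp8a2-led one in WT library 1. Tox was lower in the Gm4208-led cluster than in the Atp8a2-led one in every library. Tox was lower in both ACC1 KO libraries than in both WT libraries in 5 of the 6 iNKT1-like clusters, and the libraries overlapped in the 1 other. Ezh2 was higher in both ACC1 KO libraries in 4 of the 6 and overlapped in 2. The clusters share the same 4 libraries, and the share of all genes apart was not counted per cluster. In the class sum 21.9% of all genes were apart lower and 7.88% apart higher. In the Gm4208-led cluster Tox stood at 49.4 and 38.8 CPM in ACC1 KO and at 101 and 68.6 CPM in WT, and in the Atp8a2-led cluster at 146 and 156 CPM in ACC1 KO and at 220 and 178 CPM in WT. Weighted to the same mix of these clusters, the log2 fold change was -0.70 for Tox and -0.23 for Themis, an alternative added after seeing the data. Themis overlapped between genotypes in all 6 clusters.

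Cells beside the iNKT1-like class gave like values for Tox. Interferon-responding iNKT cells held 74.6 and 55.7 CPM in ACC1 KO and 191 and 102 CPM in WT (-1.06 ± 0.27, log2, SE; unadjusted p = 0.00385, adjusted p = 0.603). The Klra-led cluster held 152 and 143 CPM in ACC1 KO and 330 and 219 CPM in WT, which was not tested because the cluster has no name. In interferon-responding cells 7 of the 10 genes were tested and 0 passed adjusted by edgeR or DESeq2, where edgeR called 0% of 10168 genes lower and 0.059% higher, and DESeq2 0.128% higher. Tox and Themis (-0.83 ± 0.29, log2, SE) had an unadjusted p under 0.05 (3.61% of all genes did) and were apart lower, beside 22.5% of all genes, while 8.61% were apart higher. In iNKT0-like, iNKT2-like and DP thymocyte-like cells Tox was -0.04 ± 0.31, 0.18 ± 0.36 and 0.07 ± 0.31 (log2, SE), and its libraries overlapped. In cycling iNKT1-type cells it was apart lower in ACC1 KO, at 81.0 and 79.4 CPM, against 156 and 90.1 CPM in WT. In cycling DP thymocyte-like cells it was apart lower too, at 130 and 116 CPM in ACC1 KO, against 243 and 352 CPM in WT, where 1 WT library held 11 cells and no test was made. The share of all genes apart was not counted for these cycling classes or for the Klra-led cluster.

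**Figure D3:**
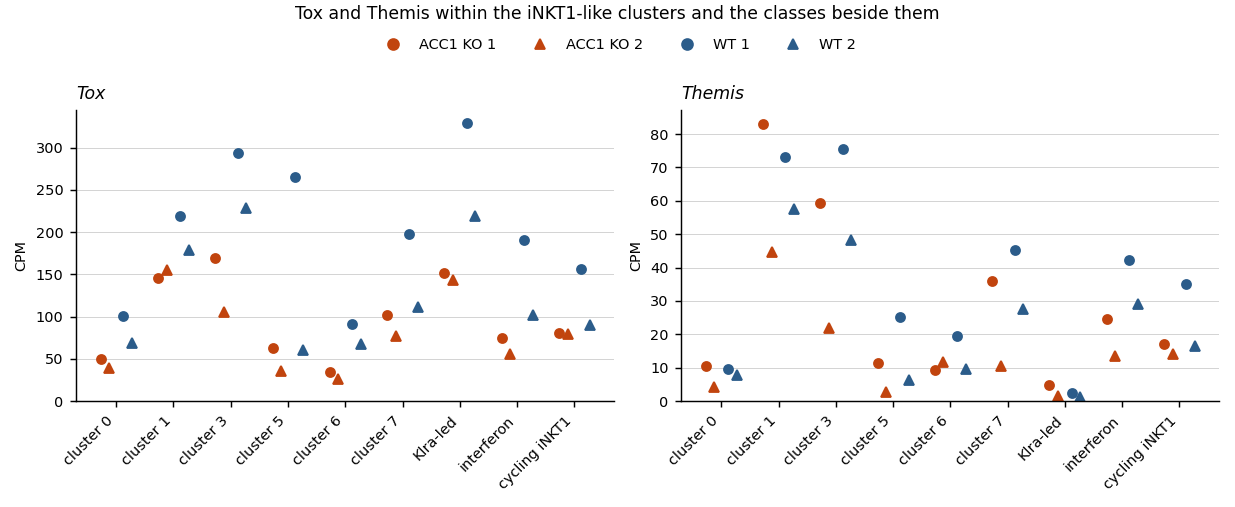
Tox and Themis in CPM in the 6 iNKT1-like clusters and the classes beside them, 1 point per library, ACC1 KO left of WT, where cluster 0 is the Gm4208-led and cluster 1 the Atp8a2-led one. Both ACC1 KO libraries lie below both WT libraries for Tox in 5 of the 6 clusters, whereas Themis overlaps in all 6. The clusters share the same 4 libraries, and in the class sum 21.9% of all genes were apart lower.

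Whether the difference between stages itself depended on genotype was tested in 1 model over 2 classes and 4 libraries. For Tox the iNKT0-like over iNKT1-like difference was 5.77 in ACC1 KO and 4.91 in WT (means of log2), and the test of genotype gave 0.84 ± 0.22 (SE; unadjusted p = 0.000199, adjusted p = 0.143). From DP thymocyte-like cells the Tox difference was 3.15 in ACC1 KO and 2.22 in WT, with 0.97 ± 0.28 in the test (adjusted p = 0.163), and from iNKT2-like cells 3.87 in ACC1 KO and 2.82 in WT, with 1.03 ± 0.79 (adjusted p = 1). These 3 comparisons share the iNKT1-like sums. For the iNKT0-like comparison Themis was the other gene of the 10 with an unadjusted p under 0.05 by edgeR (0.68 ± 0.26, adjusted p = 1), beside 3.65% of all genes. No gene of the 10 passed adjusted in any of the 3 by edgeR or DESeq2. With library 1 of ACC1 KO left out, Themis passed edgeR in the iNKT0-like comparison, and Lef1, Tcf7, Tox and Themis passed in the iNKT2-like one. Over all genes edgeR called 0.147% with a larger and 0.0327% with a smaller difference in ACC1 KO from DP thymocyte-like cells, 0.057% each way from iNKT0-like cells, and 0.0315% larger and 0.0866% smaller from iNKT2-like cells. DESeq2 called 0.0164% and 0.0163% smaller from DP thymocyte-like and iNKT0-like cells, and 0.00787% larger and 0.0157% smaller from iNKT2-like cells. For Lef1 the iNKT0-like to iNKT1-like difference was 5.18 in ACC1 KO and 5.13 in WT, and the test gave -0.01 ± 0.22.

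Genes around the 10 were counted in 7 lists in the sum of all iNKT cells, and in none did a gene pass the adjusted threshold with edgeR. The counts at an unadjusted p under 0.05 stand beside 4.96% of all genes tested. Of 14 tested genes among 15 HMG box and E protein partners, 9 were positive and 5 negative (median log2 0.20, beside -0.01 over all genes), and 2 had an unadjusted p under 0.05. Sox13, an HMG box factor of the interleukin-17 lineage of gamma-delta T cells, stood at 0.595 and 0.856 CPM in ACC1 KO and at 3.31 and 3.28 CPM in WT (-2.10 ± 0.31, SE; edgeR adjusted p = 0.334, DESeq2 adjusted p = 0.00187). The iNKT17-like class held 22 and 30 cells in ACC1 KO and 80 and 80 in WT, and its part in the Sox13 values was not tested. Id3, the E protein inhibitor, stood at 99.6 and 80.5 CPM in ACC1 KO and at 69.5 and 52.9 CPM in WT (0.61 ± 0.17), and Hmgb2 and Sox12 followed in order of p.

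Of 8 tested DP thymocyte genes among 10, 6 were positive and 2 negative (median log2 0.57), 3 had an unadjusted p under 0.05 and 1, Cd4, passed with DESeq2. Cd4, the co-receptor, stood at 49.0 and 45.7 CPM in ACC1 KO and at 22.1 and 20.9 CPM in WT (1.19 ± 0.13, SE; edgeR adjusted p = 0.199, DESeq2 adjusted p = 1.18e-07). Ccr9, a chemokine receptor of DP thymocytes, stood at 51.6 and 46.4 CPM in ACC1 KO and at 35.5 and 21.7 CPM in WT (0.84 ± 0.23), and Arpp21 and Dntt followed. The egress and maturation list, 15 of 15 tested, had 11 positive and 4 negative (median log2 0.30) and 4 with an unadjusted p under 0.05, among them Cd4, Ccr7 (0.71 ± 0.18) and Ccr9. The mature iNKT list, 21 of 22 tested, had 9 positive and 12 negative (median log2 -0.10) and 4 with an unadjusted p under 0.05, among them Cxcr3 (-0.49 ± 0.12), Fasl (-0.36 ± 0.14) and Xcl1 (-0.40 ± 0.16).

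In the other 3 lists, Id3 was the 1 gene with an unadjusted p under 0.05. Of the Wnt and TCF-LEF target or corepressor genes, 15 of 17 were tested, 6 positive and 9 negative (median log2 -0.035), and 0 had an unadjusted p under 0.05 by edgeR or passed with DESeq2. The smallest p values were those of Nkd1 (1.11 ± 0.63), Tle1 (0.41 ± 0.26), Myc (0.35 ± 0.22) and Axin2 (-0.19 ± 0.13). Axin2, a feedback target of Wnt signals, stood at 18.6 and 17.4 CPM in ACC1 KO and at 22.1 and 20.4 CPM in WT. Of the Polycomb repressive complex 2 genes other than Ezh2, 12 of 13 were tested, 8 positive and 4 negative (median log2 0.02), and 0 had an unadjusted p under 0.05 or passed DESeq2, with Phf19 the smallest in p (0.53 ± 0.28). Of the early T cell receptor signal and selection genes, 23 of 24 were tested, 8 positive and 15 negative (median log2 -0.05), and 1, Id3, had an unadjusted p under 0.05, followed by Ikzf3 (-0.41 ± 0.17), Rasgrp1 (-0.37 ± 0.19) and Cd28 (0.27 ± 0.16).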

How the data were processed

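Libraries of thymic cells were deposited by the authors as UMI counts per gene and barcode, made with Cell Ranger 7.0.0 on mm10, per the submitters' processing notes. The labels gave genotype and number. The 10 genes and the gene lists were chosen with earlier results of these data known. Cells with at least 500 genes, 1000 UMIs and under 10% mitochondrial UMIs were kept, which removed 146 and 67 ACC1 KO and 42 and 33 WT barcodes. Simulated doublets scored within each library then removed 315 and 584 ACC1 KO and 238 and 783 WT cells, 0.8% per 1000 cells. Clusters came from Leiden clustering at resolution 1 of a shared-neighbour graph (2000 variable genes without the 10, 30 principal components, 15 neighbours). Before that, each variable gene was scaled within each replicate number over both genotypes, so all classes rest on a scaling by number. No alternative clustering left this scaling out. Class names followed fixed marker lists, and the score limits for naming had been set with the data seen. A class needed 50 cells in every library for a test. UMIs were summed per class and library.

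The quasi-likelihood F test of edgeR 4.0.16 compared ACC1 KO with WT (TMM factors, filterByExpr, no covariate, Benjamini-Hochberg adjustment over all genes tested, threshold 0.05). The difference between classes was tested as an interaction with library as a term. Shares were compared with the two-sided exact permutation test. Intervals are exact 95% Poisson or binomial ones and cover counting error only. Named genes were all 10, up to 10 genes most like their mean, and up to 4 genes per list with the smallest p, of which 2 are not reported here. Alternatives were DESeq2 1.42.0 (size factors or Wald test), other filters on low counts, every barcode, doublets kept, the 10 genes kept in the clustering, resolutions of 0.5 and 2, thinning, the replicate number as a block and each library left out. The fits were tested on simulated data with known changes. Of 2-fold changes they recovered 29.8% in all iNKT cells, 19.8% in iNKT1-like, 21.5% in iNKT2-like and 15.3% in DP thymocyte-like cells. Of 4-fold changes they recovered 91.7, 88.8, 90.7 and 61.8% in the same order. Most 2-fold changes would thus miss the threshold.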

Additional observations from a re-analysis of the deposited data

How the results depend on the processing

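No value of the 10 genes that passed a threshold changed direction under any alternative. Over 1171 alternative values of the log2 fold changes of the 10 genes, 27 newly passed the adjusted threshold and 119 changed sign, none of them past the threshold in either fit. Of 260 log2 differences between classes, 251 moved by less than 1 SD. The Itm2a difference between iNKT2-like and iNKT1-like cells turned to 0.16 when cells were thinned. Shares of cells with a UMI followed depth, and 61 of 80 moved.

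Counts of genes called among all genes depended on the fit. The quasi-likelihood fit called 1 gene in all iNKT cells, 0 in iNKT2-like, 1 in iNKT1-like, 4 in cycling, 6 in interferon-responding, 0 in DP thymocyte-like and 0 in iNKT0-like cells, and 22, 14 and 15 for the class differences from DP thymocyte-like, iNKT0-like and iNKT2-like cells. With the DESeq2 Wald test the counts were 103, 4, 77, 10 and 13 in the first 5 of these, and 2, 2 and 3 for the class differences, and of the 10 genes 1 (Tox in iNKT1-like cells) passed. Without a filter on low counts they were 356, 28, 206, 49 and 77 in the first 5, 8 in DP thymocyte-like cells, 4 in iNKT0-like cells and 61 for the iNKT2-like difference. Of the 10 genes 1 passed in each of 4 of these: Ezh2 in all iNKT cells, Tox in iNKT1-like and in interferon-responding cells, and Tcf7 in the iNKT2-like difference. With a mean of at least 10 CPM the counts were 0 in all iNKT and 0 in iNKT1-like cells, 1 in cycling and 1 in interferon-responding cells, and 3, 3 and 5 for the class differences. Summing every barcode gave 0 in all iNKT cells. With doublets kept the counts were 1 in DP thymocyte-like cells, 2 in iNKT1-like cells and 8 for the DP thymocyte-like difference. Resolution 0.5 gave 8 in cycling cells and resolution 2 gave 2 in iNKT1-like cells. With doublets kept and at both resolutions 1 of the 10 genes, Tox, passed in the iNKT0-like difference.

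The labels do not say that the replicate numbers pair the libraries, and 2 pairs are too few to settle it. Deviations from the genotype means did correlate within a number (r = 0.899 over 5997 genes), and the main fits of ACC1 KO against WT left the number out. With the number as a replicate block the counts were 1600 in all iNKT cells, 75 in iNKT2-like, 1043 in iNKT1-like, 281 in cycling, 405 in interferon-responding and 4 in iNKT0-like cells. Of the 10 genes 6 then passed in all iNKT cells (Lef1, Sox4, Myb, Hivep3, Cd24a and Ezh2), 3 in iNKT1-like cells (Tox, Themis and Ezh2), 2 in iNKT2-like cells (Lef1 and Tcf7), 1 in cycling cells (Lef1) and 2 in interferon-responding cells (Tox and Themis). The numbers also separate libraries by Ddx3y and Xist, and in both genotypes the library numbered 2 was the deeper.

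Leaving out each library in turn left 1 library in a genotype, assumed to vary like the others, and gave 11 to 88 calls in all iNKT cells, 4 to 19 in iNKT2-like, 6 to 38 in iNKT1-like, 5 to 35 in cycling, 5 to 17 in interferon-responding, 0 to 30 in DP thymocyte-like and 0 to 8 in iNKT0-like cells. The class differences, in the order above, gave 2 to 49, 5 to 11 and 14 to 95. Of the 10 genes, 0 to 1 passed in the iNKT0-like difference (Themis, without ACC1 KO 1) and 0 to 4 in the iNKT2-like difference (Lef1, Tcf7, Tox and Themis, without ACC1 KO 1). Tox in iNKT1-like cells then ran from -1.11 to -0.67. The cause of these shifts was not tested. The iNKT2-like class at resolution 0.5 and the iNKT17-like class were not run.

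Of the classes tested, DP thymocyte-like and iNKT0-like held the fewest cells, 60 and 47 in the smallest library, and a p that missed the threshold there does not show that levels were alike.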
